A study of Mus musculus with 1078 samples.

Results

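The genes described here build or process the extracellular matrix and the vascular basement membrane. The list holds 45 genes, of which 44 have a row among the 21765 genes measured, since Lum has none. They are 16 collagens or collagen chains, 7 laminin and nidogen chains, proteoglycans, matricellular proteins, fibulins and fibrillin, and the enzymes and chaperones that process collagen. Members were taken from the list whatever their level, so no measured value chose them.

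The cells were sorted from brain tumors of GL261, a glioma line of C57Bl/6 origin implanted into C57Bl/6 mice, and profiled by Smart-seq2, which amplifies full-length cDNA from 1 sorted cell per well. The paper states that the protocol was adapted for T cells and endothelial cells and used as published before for malignant cells and microglia. Mice received losartan (an angiotensin receptor blocker), anti-PD1 (an antibody against an immune checkpoint receptor), losartan+anti-PD1 or control treatment. Each treatment had 1 plate in each of 4 sorts, CD31-positive, CD3-positive, CD45-negative and CD45-positive, and 1078 cells were analysed on 16 plates. The hosts were young adult mice of either sex, control mice received PBS and IgG, and the tumor is a single implanted cell line. Since the labels tie no cell to an animal, a treatment within a sort counts as 1 sample, treatment cannot be told apart from plate, and no test was run.

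The basement membrane of a blood vessel is a thin sheet that endothelial cells and pericytes lay down together. Collagen IV and laminin form its polymer networks, nidogens and the heparan sulfate proteoglycan perlecan join them, and integrins on the cell surface hold the cell to the sheet. Brain tissue holds little fibrillar collagen and is filled instead with hyaluronan bound by lectican proteoglycans such as brevican and neurocan. Losartan has been studied in tumors because angiotensin signaling can raise matrix production.

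The 2 chains of collagen IV start head to head on chromosome 8, which is why their shared first bases are shown here. In GENCODE vM21 on GRCm38, Col4a1 lies at 11198423 to 11312826 on the minus strand and Col4a2 at 11312805 to 11449287 on the plus strand. The interval between the annotated starts, chr8:11312805-11312826 (22 bases, RefSeq promoter table, GRCm38.p6), lies inside both annotated genes, at the 5′ end of each. It is printed 5′ to 3′ in the sense of each gene, with a GC box (GGGCGG, or CCGCCC on the other strand) in capitals.
Col4a2 sense, plus strand: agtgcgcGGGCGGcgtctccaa
Col4a1 sense, minus strand: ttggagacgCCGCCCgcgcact
Promoter windows of 250 bases before and 50 after each start overlapped by 78 bases. The Col4a1 window held 1 GC box and the Col4a2 window 3, and each held 1 CCAAT box (CCAAT or ATTGG), counting both strands. Of 32851 windows of this length in the table, 35.7% held a GC box and 37.4% a CCAAT box, so neither motif is particular to this pair. A match describes letters and not a site in use.

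Levels are TP100K, each cell's deposited values scaled to a sum of 100000. CD31-positive and CD3-positive plates hold TPM, which are per transcript length, and CD45-negative and CD45-positive plates hold expected counts, which are not. Levels of different genes were therefore compared only on TPM plates, and no level was compared between the kinds of plate. Expected counts summed to 3598 to 1896090 per cell (median 389298, 426 cells), TPM keeps no depth, and 1023 to 7995 genes were detected per cell. Exact intervals (Clopper-Pearson, 95%) are given for shares of cells and reflect counting error alone, and a share of 0 among n cells allows up to 3/n.

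The cell labels were checked against marker lists. Each of the 3 clusters of tumor endothelial cells (TECs, 43 cells on the control CD31-positive plate, 57 with losartan, 79 with anti-PD1 and 16 with the combination) carried endothelial markers, 8 of 8 in clusters 3 and 7 and 7 of 8 in cluster 12, where the tight junction gene Cldn5 was above 0 in 3 of 23 cells. Cluster 3 (3, 29, 78 and 5 cells in the same order) had the barrier transporter Slco1c1 at a mean of 100.9 TP100K against 6.06 in cluster 7 (57 cells) and 0 in cluster 12 (23 cells), and cluster 12 had Plvap, a protein of fenestrated and leaky vessels, at 209.03 against 1.73 and 1.22. Of 3 listed barrier markers, all 3 were above 0 in at least 25% of cells of clusters 3 and 7, and 1 in cluster 12. Their summed means were 298.4, 146.8 and 3.97 TP100K in clusters 3, 7 and 12, so cluster 7 carried barrier markers too. Cells labelled microglia were of 2 kinds. Cluster 6 (51 cells) had 7 of 7 microglia markers in at least 25% of cells, whereas cluster 11 (28 cells) had 5 of 5 granulocyte markers and 2 of 7 microglia markers, so its label went against its markers. Cluster 6 also had 4 of 6 macrophage and 3 of 8 dendritic cell markers, so it was not marked as microglia alone. Cells labelled Myeloid (73 cells) carried 6 of 8 dendritic cell markers. Malignant cells numbered 33, 25, 8 and 51 on the CD31-positive and 49, 47, 8 and 44 on the CD45-negative plates (in the order control, losartan, anti-PD1 and the combination), and 6 of them held at least 5 of 10 pericyte and smooth-muscle markers and are treated separately below. On the CD45-negative plates, 49 cells labelled losartan carry an experiment name that reads LosPD1, and the treatment label was used for them.

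Endothelial and malignant cells had 10 detected members in common and each had others of its own. A member counted as detected in a population when it was above 0 in at least 25% of its cells. By that measure 18 of the 44 members were detected in a TEC cluster, 19 in malignant cells and 10 in both. The 8 detected only in TECs among these were Col4a1, Col4a2, Col15a1, Fn1, Bgn, Lama5, Nid1 and Nid2, which apart from fibronectin and the small proteoglycan biglycan are basement membrane components. The 9 detected in malignant cells and in no TEC cluster were Col3a1, Col11a1, Col16a1, Tnc, Thbs2, Bcan, Ncan, Fbn1 and Pcolce. Col20a1 and Vcan reached 25% only in oligodendrocytes, and 15 members reached it in none of these populations: Col1a1, Col1a2, Col5a1, Col5a2, the 3 collagen VI chains, Col8a1, Dcn, Spp1, Thbs1, Fbln1, Fbln2, Lox and Postn. The genes that define fibroblast matrix (the collagen I chains, Dcn and Lox) thus reached 25% of cells in none of these populations. The few cells with pericyte and smooth-muscle markers, described below, were an exception for Col1a2.

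**Figure D1:**
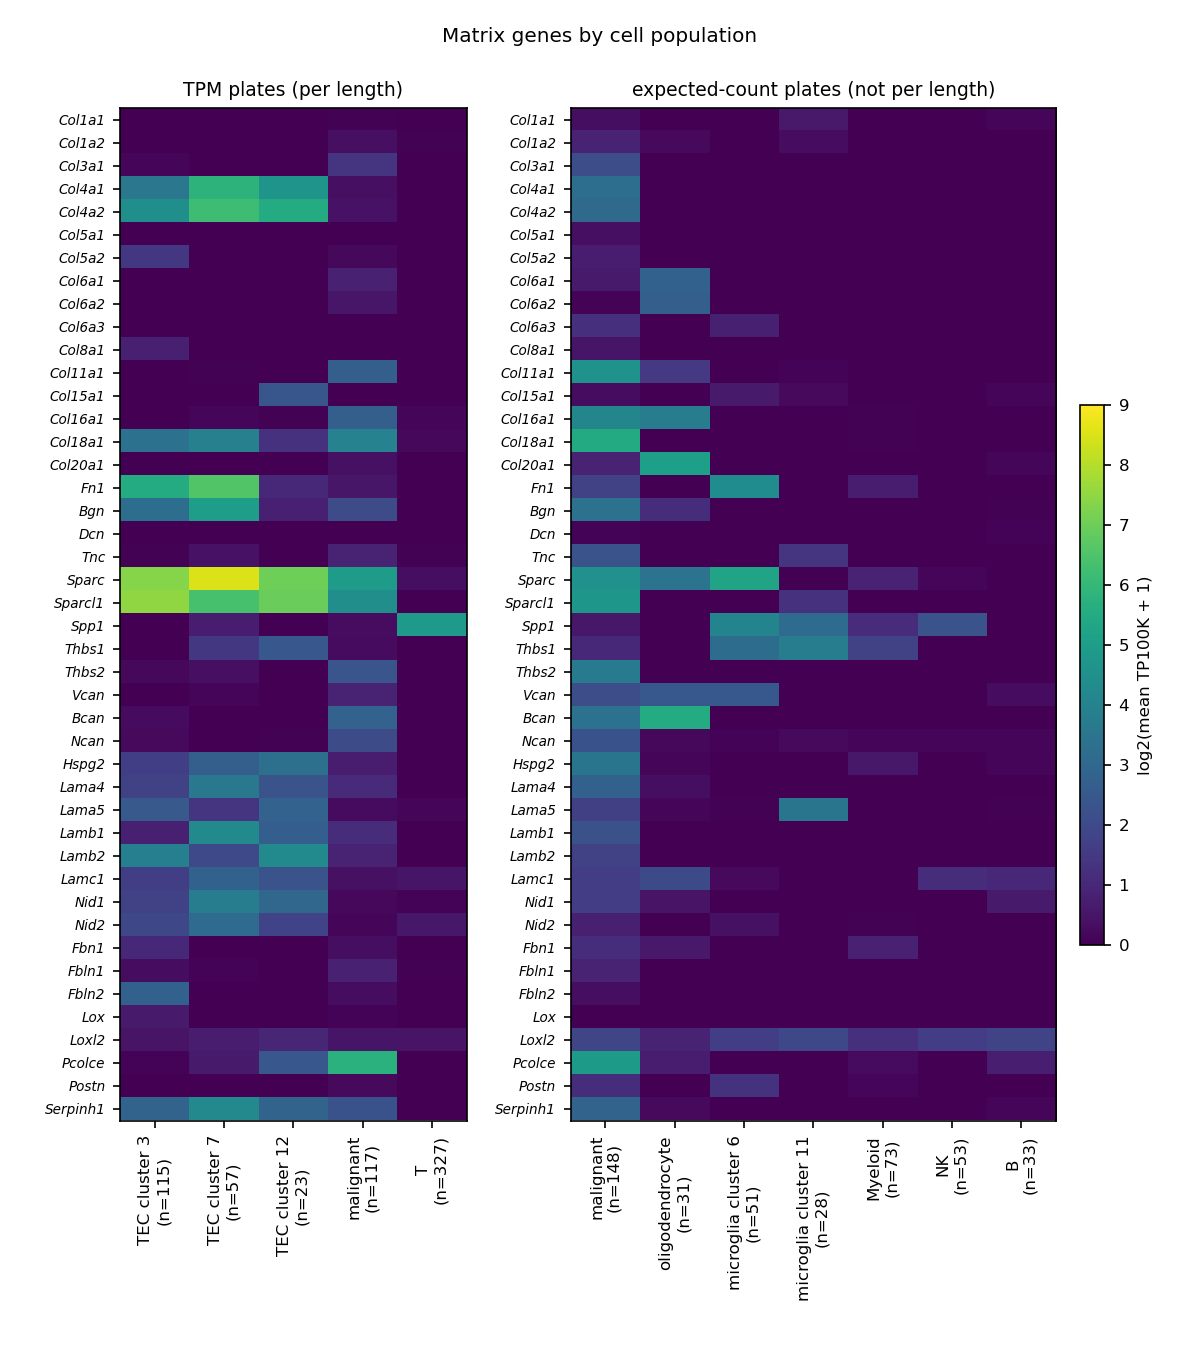
Mean level of each of the 44 members, as log2(mean TP100K + 1), in 12 cell populations, with TPM plates (per transcript length) on the left and expected-count plates (not per length) on the right and the number of cells under each column. The map is read along 1 gene within 1 kind of plate. On TPM plates Sparc, Sparcl1, Fn1 and collagen IV stand out in TECs and Pcolce in malignant cells. On expected-count plates Pcolce and Col18a1 stand out in malignant cells, and Col20a1 and Bcan in oligodendrocytes.

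Summed over the 44 members, the mean level was 801 TP100K in TEC cluster 7, 491 in cluster 3, 401 in cluster 12 and 163.5 in malignant cells of the same CD31-positive plates. Sparc, a collagen-binding matricellular protein, was the highest member of cluster 7 at 364 ± 133.5 TP100K (SD over cells, n = 57). Its relative Sparcl1 led in cluster 3 at 181.4 ± 165.3. Sparc exceeded Sparcl1 in 57 of 57 cells of cluster 7, while in cluster 3 Sparc was the higher in 51 cells and Sparcl1 in 63.

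Most members of the vascular basement membrane were highest in cluster 7. Col4a1 and Col4a2, which form the common collagen IV trimer, were each above 0 in 57 of 57 cells of cluster 7, at 55.1 ± 24.01 and 72.9 ± 38.5 TP100K. In cluster 3 they were above 0 in 70.4% (61.2 to 78.6%) and 86.96% (79.4 to 92.5%) of cells, at 10.7 ± 13.7 and 21.3 ± 24.3. Cluster 12 lay between, at 24.5 ± 28.1 and 45.5 ± 52.9. Over all TECs only 9 cells had Col4a1 alone, 29 had Col4a2 alone and 10 had neither chain.

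Among laminins the beta chain differed most between the clusters. Lamb1, the beta-1 chain, was above 0 in 57 of 57 cells of cluster 7 at 18.4 ± 14.2 TP100K and in 13 cells of cluster 3 (11.3%, 6.16 to 18.6%) at 0.716 ± 2.52. Lamb2, the beta-2 chain of mature vessel and synaptic laminins, ran the other way, at 2.99 ± 4.61 in cluster 7 and 13.7 ± 15.5 in cluster 3, and was highest in cluster 12 at 18.4 ± 24.3, where Lamb1 stood at 5.50 ± 15.5. Cell by cell, Lamb1 exceeded Lamb2 in 50 of 57 cells of cluster 7 and Lamb2 exceeded Lamb1 in 85 cells of cluster 3, where Lamb1 was the higher in 6 and the chains were equal in 24. The alpha chains followed: Lama4 exceeded Lama5 in 40 of 57 cells of cluster 7, and Lama5 exceeded Lama4 in 62 cells of cluster 3 against 23 with the reverse. The clusters were made by the authors from all genes of these cells, so these values describe the clusters and test nothing.

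The order of the beta chains held on each plate with at least 20 cells of a cluster. In cluster 7 Lamb1 was the higher chain in 25 of 28 control cells and 22 of 24 losartan cells. In cluster 3 Lamb2 was the higher chain in 54 of 78 anti-PD1 cells and 23 of 29 losartan cells, and Lamb1 was listed at 0 in all 29 of the latter.

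The order of the clusters was not the same for every basement membrane member. Nid1, a nidogen that links laminin to collagen IV, was above 0 in 94.7% of cluster 7 cells at 12.8 ± 11.5 TP100K, in 29.6% of cluster 3 cells at 2.34 ± 5.19 and in 30.4% of cluster 12 cells at 6.88 ± 16.4. Bgn stood at 31.6 ± 55.8 in cluster 7, 8.64 ± 34.3 in cluster 3 and 0.725 ± 3.37 in cluster 12, where 1 cell held 96.99% of it. Hspg2, which encodes perlecan, was highest in cluster 12 at 9.11 ± 9.02, against 5.61 ± 5.04 in cluster 7 and 2.19 ± 4.11 in cluster 3.

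Cluster 12 had a makeup of its own. Col15a1, a basement membrane collagen, was above 0 in 10 of its 23 cells (43.5%, 23.2 to 65.5%) at 4.30 ± 7.28 TP100K and listed at 0 in every cell of clusters 3 and 7. Fn1, which encodes fibronectin, was above 0 in 3 of 23 cells at 1.07, and 1 losartan cell held 98.7% of that. In cluster 7 fibronectin was above 0 in 57 of 57 cells at 92.01 ± 59.3 and in cluster 3 in 93.9% at 45.5 ± 36.4. Levels of Pcolce, Col18a1, Thbs1 and Lamb1 in cluster 12 also rested on 1 cell each, which held 98.9%, 94.9%, 59.8% and 54.9% of them.

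**Figure D2:**
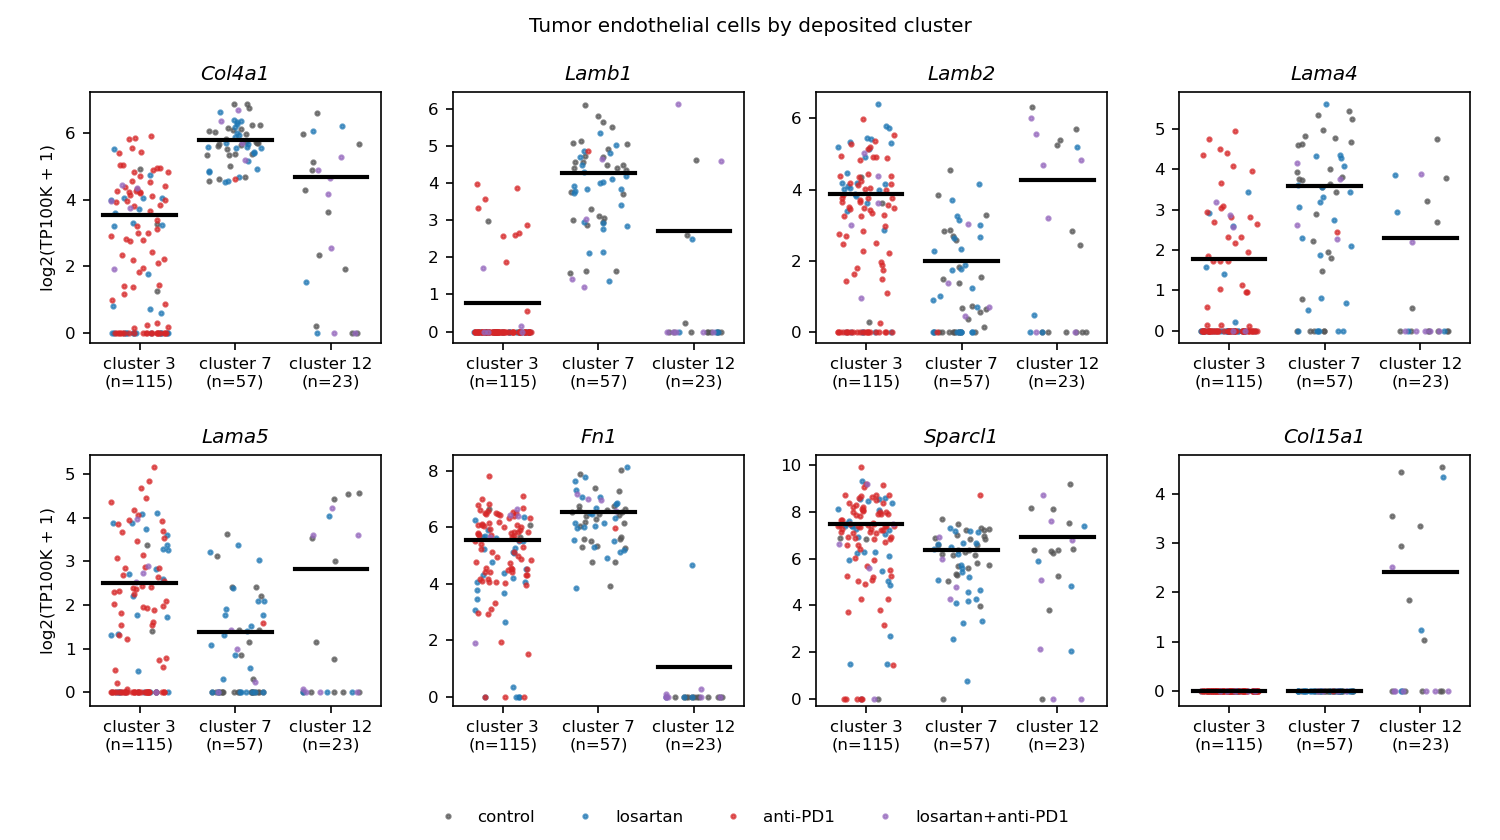
Level of 8 members in each TEC of the CD31-positive plates as log2(TP100K + 1), by deposited cluster (3, 7 and 12, with the number of cells), colored by treatment, with a bar at log2 of the mean TP100K + 1. Lamb1 is above 0 in all 57 cells of cluster 7 and Lamb2 is lower in cluster 7 than in clusters 3 and 12, Fn1 is near 0 in cluster 12 and Col15a1 is above 0 in cluster 12 alone.

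A comparison within 1 plate removed the difference between plates. The losartan CD31-positive plate held 29 cells of cluster 3 and 28 of clusters 7 and 12. Ratios are log2 of (mean + 1 TP100K), which understates changes of low genes, computed for genes detected in 25% or more of either group, and a gene was called at a ratio of 1 or more, or −1 or less. Of 18 members that passed the filter, 12 were called lower in cluster 3, where 16% of all 7246 genes were, and 3 were called higher, where 15.4% were. Lamb1 was listed at 0 in cluster 3 against 13.2 TP100K. The other lower members were Nid1 (0.381 against 9.21, log2 ratio −2.89), Col4a1 (6.41 against 49.1, −2.76), Lama4, Col4a2, Sparc, Hspg2, Fn1, Lamc1, Serpinh1, Col18a1 and Nid2, the last at −1.35. The higher members were Lamb2 (22.1 against 4.23, 2.14), Sparcl1 (169.9 against 61.6, 1.45, but −0.19 when cells were scaled by their 75th percentile) and Fbln2, a fibulin of elastic and basement membrane matrix (11.7 in 10 of 29 cells against 0.00964 in 1 of 28, 3.66). Cells of cluster 3 had fewer genes detected (median 2151 against 3733), and the part of this in the ratios was not tested.

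Genes outside the list that act on the same matrix were read from fixed lists. Of 9 matrix receptors that passed the filter, 4 were called lower in cluster 3 and none higher, led by the laminin-binding integrin subunit Itga3 (0.0430 against 4.34 TP100K, −2.36). Of 8 collagen-modifying genes 3 were called lower, led by Bmp1, which trims procollagen (1.32 against 7.50, −1.87), and Crtap was called higher (29.4 against 11.9, 1.23). None of 4 hyaluronan genes was called, and of 5 further basement membrane genes Lama3 was above 0 in 8 of 29 cells of cluster 3 and listed at 0 in the others.

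On the control CD31-positive plate, 43 TECs and 33 malignant cells shared 1 plate and 1 unit. Of 25 members that passed the filter, 15 were called higher in TECs, where 15.8% of all 10206 genes were, and 6 were called lower, where 20.2% were. The median ratio of these members was 2.21, and 1.92 among those above 0 in both groups, against −0.16 for all genes tested. Col4a2 stood at 67.7 TP100K in TECs and 0.00658 in malignant cells (log2 ratio 6.09), Fn1 at 61.2 and 0.208 (5.69) and Col4a1 at 45.6 and 0.00212 (5.54). Bgn, Nid1 and Nid2 were listed at 0 in the 33 malignant cells and at 32.5, 11.3 and 5.69 in TECs. All 5 laminin chains listed were called higher in TECs, from Lama5 (3.10 against 0.235, 1.73) to Lamb1 (15.2 against 0.787, 3.18). Malignant cells had more genes detected (median 7188 against 3620).

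The 6 members called higher in malignant cells form no basement membrane. Pcolce, which enhances the trimming of fibrillar procollagen, stood at 49.3 TP100K in 31 of 33 malignant cells and at 2.67 in TECs, where 1 cell held 88.5% of it (log2 ratio −3.78). Col11a1, a minor fibrillar collagen, stood at 7.86 against 0.0348 (−3.10), and Col16a1, a fibril-associated collagen, at 6.41 against 0.0168 (−2.87). Bcan and Ncan, the lecticans brevican and neurocan, stood at 5.53 and 2.44 against 0.0165 and 0.0268 (−2.68 and −1.74), and Thbs2, a matricellular thrombospondin, at 4.34 against 0.200 (−2.15, but 0.28 within cells of 2000 to 6000 genes). Col18a1, the parent of endostatin, was high in both, at 20.7 in malignant cells and 11.2 in TECs, and was not called. Of the receptor list, Cd44 and Ddr1 were called higher in malignant cells (10.003 against 0.0122 and 5.31 against 0.0304 TP100K) and Itga1 in TECs (9.13 against 0.222), and over 13 receptors 5 were called higher and 3 lower in TECs. Over 6 hyaluronan genes 3 were called lower in TECs, with Cd44 counted in this list as well as among the receptors. The lowest was Ugdh, which makes a hyaluronan precursor (0.931 against 43.7, −4.53). Over 11 collagen-modifying genes 2 were higher and 5 lower, and all 3 further basement membrane genes, Agrn, Mmrn2 and Egfl7, were higher.

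Of the 19 members detected in malignant cells of the CD31-positive plates, 16 were detected in those of the CD45-negative sort, where Col3a1 (16.9% of cells), Tnc (20.9%) and Lamb2 (11.5%) fell short. Col18a1 was above 0 in 87.2%, Pcolce in 89.9%, Col16a1 in 82.4% and Col11a1 in 81.8% of cells, beside 94.02%, 93.2%, 94.02% and 89.7% in malignant cells of the CD31-positive plates. The library protocol may differ between these sorts, and its part in the shares was not tested. Collagen IV was the exception in level. Col4a1 had a mean of 8.62 with an SD of 60.5, while only 7 cells (4.73%, 1.92 to 9.50%) were above 0.

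Nearly all of that collagen IV lay in the cells with pericyte and smooth-muscle markers. Of all cells labelled malignant, 6 had 5 to 9 of the 10 markers and the others at most 4, and no TEC had more than 3. These 6 were 5 cells of the CD45-negative plates (1 control, 2 losartan, 2 anti-PD1) and 1 anti-PD1 cell of the CD31-positive plate. Their Col4a1 level ran from 28.5 to 609 TP100K, and Rgs5 reached 963 and Acta2 1892. The glial genes Sox2 and Ptprz1 and the endothelial gene Pecam1 were at 0 in all 6. Of 7 glial markers, however, each of these cells had 1 or 2 above 0. The 5 CD45-negative cells held 96.3% of the Col4a1, all of the Col4a2, 96.7% of the Bgn, 98.6% of the Nid1, 78.6% of the Sparcl1 and 75.4% of the Fn1 of all malignant-labelled cells of these plates. The threshold of 5 markers was chosen after the values were seen, and the label of these cells is kept as deposited.

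**Figure D3:**
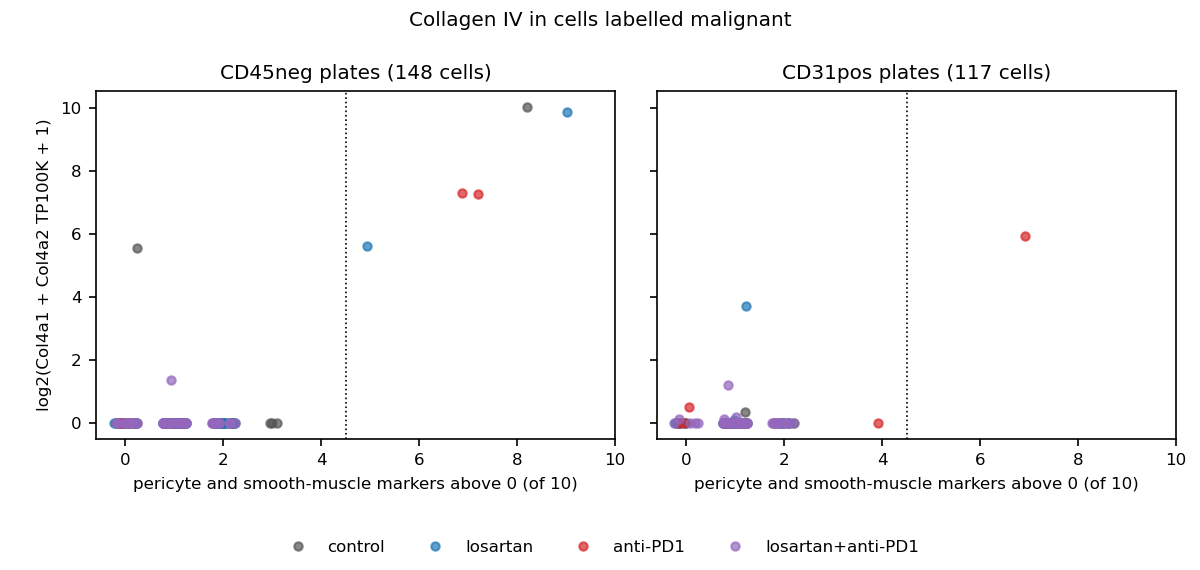
Summed Col4a1 and Col4a2 level of each cell labelled malignant, as log2(TP100K + 1), against the number of 10 pericyte and smooth-muscle markers above 0 (points spread sideways), for the CD45-negative and the CD31-positive plates, colored by treatment. The dotted line divides the 6 cells with at least 5 markers from the others, and all 6 carry collagen IV.

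Myeloid cells of the control plate carried few matrix transcripts. Control malignant cells of the CD45-negative plate (n = 49) were set against control cells labelled microglia of the CD45-positive plate (n = 28), where cell type and plate cannot be told apart. Of these microglia-labelled cells 12 were of cluster 11. Malignant cells had more genes detected (median 7095 against 2998.5 in microglia and 3859 in Myeloid cells), and the part of this in the ratios was not tested. Of 17 members that passed the filter 15 were called higher in malignant cells, where 35.9% of all genes were, and 11 of these were listed at 0 in the microglia (0 of 28 cells, which allows a share of up to 10.7%). Spp1, which encodes osteopontin, was the only member called lower, at 0.401 TP100K in 2 of 49 malignant cells and 26.5 in 9 of 28 microglia (log2 ratio −4.30), where 14.9% of all genes were called. Against cells labelled Myeloid (n = 25), 14 of 16 members were called higher, where 29.8% of all genes were, with 11 listed at 0 in Myeloid cells, and none was called lower, where 13.6% were. Col18a1 stood at 50.8 and Pcolce at 30.5 TP100K in the malignant cells. Of the fixed lists, 8 of 10 and 6 of 10 collagen-modifying genes were called higher in malignant cells against microglia and Myeloid cells, with none lower.

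The losartan plate had lower levels of several basement membrane members in TECs than the control plate. Of 17 members that passed the filter in 57 losartan and 43 control TECs, 5 were called lower, where 6.35% of all 6315 genes were, and none higher, where 9.37% were. The median ratio of the 17 was −0.72 against 0.05 for all genes. Bgn stood at 32.5 ± 61.1 TP100K in control (median 4.09, highest 330) and 11.4 ± 35.02 in losartan TECs (median 0, highest 213.2), a log2 ratio of −1.44. Lama4, the alpha-4 laminin chain, went from 10.4 ± 12.5 to 4.22 ± 8.10 (−1.12), Lamb1 from 15.2 ± 16.9 to 6.49 ± 9.77 (−1.12) and Nid1 from 11.3 ± 14.6 to 4.72 ± 8.37 (−1.11). Serpinh1, the collagen chaperone HSP47, went from 17.6 ± 38.1 to 8.04 ± 8.65 (−1.04), and with the highest cell of each group left out its ratio was −0.60, since 1 control cell held 33.5% of the control level. In all 5 genes the cells of the plates overlapped, although the highest Serpinh1 level was 33.3 with losartan and 253.8 in control. The members with the highest means were not called: Sparc (309 to 187.8, −0.72), Sparcl1 (107.1 to 116.7, 0.12), Col4a2 (67.7 to 37.3, −0.84), Fn1 (61.2 to 53.98, −0.18) and Col4a1 (45.6 to 27.4, −0.71).

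The plates also differed in their mix of clusters. Cluster 3 made up 3 of 43 control TECs (6.98%, 1.46 to 19.1%), 29 of 57 losartan TECs (50.9%, 37.3 to 64.4%), 78 of 79 anti-PD1 TECs (98.7%, 93.1 to 100%) and 5 of 16 losartan+anti-PD1 TECs (31.2%, 11.02 to 58.7%). Within clusters 7 and 12 (28 losartan, 40 control cells) only Bgn was called lower of 18 members (15.2 against 33.5 TP100K, −1.09), where 6.70% of all genes were, and none higher, where 7.29% were. That call was lost with a pseudocount of 10 and within cells of 2000 to 6000 genes, with Bgn still lower in both. The median of the 18 was −0.22 against 0.03 for all genes. Col4a1 stood there at 49.1 and 47.98 (0.03) and Lamb1 at 13.2 and 16.2 (−0.28). Within cluster 7 alone (24 and 28 cells) Bgn was again the only member called, at 17.8 ± 31.6 and 47.3 ± 71.2 (medians 7.29 and 26.7, log2 ratio −1.36), where 4.74% of all genes were called lower and 5.65% higher.

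**Figure D4:**
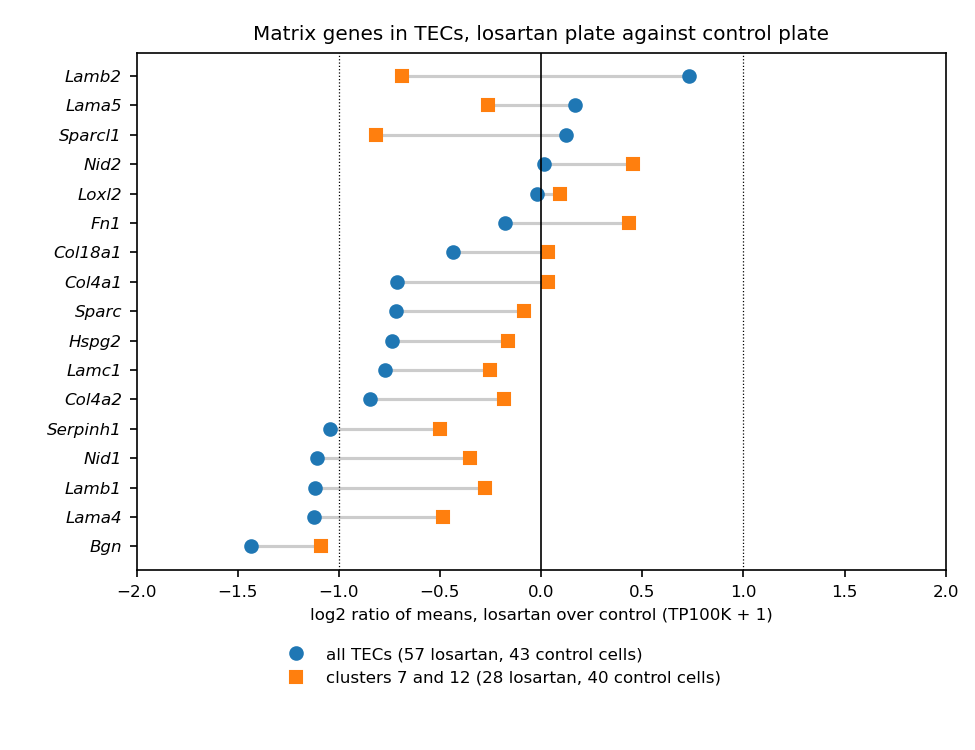
Log2 ratio of mean levels (TP100K + 1), losartan over control, for the 17 members that passed the filter in all TECs (circles, 57 and 43 cells) and the same members within clusters 7 and 12 (squares, 28 and 40 cells), with dotted lines at −1 and 1. Of the 5 members left of −1 over all TECs, Bgn alone stays there within clusters 7 and 12, while 7 members change sign, Sparcl1, Lamb2 and Lama5 to below 0 and Col4a1, Col18a1, Fn1 and Loxl2 to above 0.

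Among related genes, Itga1, a collagen-binding integrin subunit, was called lower on the losartan plate over all TECs (3.38 against 9.13 TP100K, −1.21), within clusters 7 and 12 (2.90 against 9.55, −1.44) and within cluster 7 (3.10 against 7.43, −1.04). Ugdh was called higher within clusters 7 and 12 (4.30 in 7 of 28 cells against 1.001 in 6 of 40, 1.41) and within cluster 7 (5.02 against 1.14, 1.49). Over all TECs Itga1 was the only receptor called of 8. Of 7 collagen-modifying genes Plod3 (9.70 against 3.85, 1.14) and Crtap (20.8 against 9.36, 1.07) were called higher over all TECs. Neither was called within clusters 7 and 12 (0.94 and 0.32) or within cluster 7 (0.19 and 0.01). Over all TECs no gene was called of 3 hyaluronan and 3 further basement membrane genes.

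In cluster 3 only 3 control cells were found, so losartan was set against anti-PD1 (29 and 78 cells). Of 15 members that passed the filter 4 were called lower with losartan, where 9.26% of all genes were, and 1 higher, where 6.94% were. Nid1 stood at 0.381 against 3.05 TP100K (log2 ratio −1.55, 3 of 29 and 27 of 78 cells above 0), Col18a1 at 3.89 against 10.7 (−1.25), Sparc at 82.9 ± 77.4 against 194.9 ± 166.4 (−1.22) and Lama4 at 0.865 against 2.98 (−1.09). Fbln2 was higher, at 11.7 in 10 of 29 cells against 4.34 in 12 of 78 (1.25). The losartan cells of cluster 3 had a median of 2151 genes against 2999, whose part in these ratios was not tested.

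Losartan+anti-PD1 rested on 16 TECs. Against control, 3 of 18 members were called lower, where 13.4% of all genes were, and none higher, where 12.4% were. Bgn was again the lowest, at 3.40 ± 8.62 TP100K in 4 of 16 cells against 32.5 (−2.93), followed by Nid2 (1.54 in 3 cells against 5.69, −1.40) and Serpinh1 (7.04 against 17.6, −1.21, but −0.98 without the highest cell of each group). Of the combination levels, 1 cell held 83.7% of the Col18a1, 53.6% of the Lamb1 and 52.8% of the Lamc1. With the highest cell of each group left out, these 3 members (−2.16, −1.58 and −1.03) and Lama4 (−1.12) were called lower too. Within clusters 7 and 12 (11 and 40 cells) 4 members were called lower, where 20% of all genes were. Lamb2 was called higher (16.3 against 7.42, 1.04, but 0.94 without the highest cell of each group), where 13.7% were. The lower members were Col18a1 (0.322, all in 1 of 11 cells, against 12.03, −3.30), Bgn (4.77 against 33.5, −2.58), Nid2 (−1.58) and Serpinh1 (−1.20). The mix of clusters still differed, with 7 of the 11 and 12 of the 40 cells in cluster 12. Cluster 12 had lower Bgn and Col18a1 and higher Lamb2 than cluster 7, and the part of this in the ratios was not tested. Against anti-PD1 (79 cells, nearly all of cluster 3), Lamb1 (8.09 against 1.28, 1.99), Nid1 (9.10 against 3.25, 1.25) and Col4a1 (28.4 against 12.2, 1.16) were called higher, where 11.2% of all genes were, and Bgn lower (3.40 against 9.02, −1.19), where 14.8% were. Of that Lamb1, 1 cell held 53.6%. With the highest cell of each group left out, Nid1 and Col4a1 were no longer called (0.95 and 0.96) and Col18a1 (−2.18) and Sparcl1 (−1.05) were called lower. Control is shared by these comparisons, and Bgn had its highest mean on the control plate.

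Few members were called in malignant cells, and few genes of any kind were. On the CD31-positive plates no member of 18 was called with losartan against control (25 and 33 cells), where 0.544% of all genes were called higher and 1.24% lower. Col18a1, at 10.7 against 20.7 TP100K, had the lowest ratio (−0.89), and Pcolce stood at 42.4 ± 30.4 and 49.3 ± 43.7. With losartan+anti-PD1 (51 cells), Col3a1, the collagen III chain, was called higher of 19 members (2.79 ± 6.12 in 26 of 51 cells against 0.272 ± 1.16 in 4 of 33, 1.57), where 0.571% of all genes were. Its shares of cells were 50.98% and 12.1%. Bcan was called lower (1.80 ± 2.93 against 5.53 ± 6.28, −1.22), where 0.842% of all genes were. Of the fixed lists, P4ha2, a collagen prolyl hydroxylase subunit, was called higher with losartan (6.47 against 2.09, 1.27) and Hmmr, a hyaluronan receptor, lower with losartan+anti-PD1 (1.99 against 5.11, −1.03), and no other listed gene was called on these plates.

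The CD45-negative plates gave the same direction for both genes. With losartan+anti-PD1 (44 against 49 control cells) Col3a1 stood at 5.87 ± 13.1 in 16 of 44 cells (36.4%, 22.4 to 52.2%) against 0.572 ± 3.91 in 2 of 49 (4.08%, 0.498 to 13.98%), a ratio of 2.13, where 1.30% of all genes were called higher. A cell with pericyte and smooth-muscle markers held 97.6% of the control level, and without it the control mean was 0.0137 and the ratio 2.76. Within cells of 2000 to 6000 genes (11 and 8 cells) the ratio of Col3a1 was −0.87, and the same control cell, with 4597 genes and Col3a1 at 27.4, was the only 1 of those 8 above 0, against 1 of the 11. Bcan was lower (4.05 ± 7.45 against 15.1 ± 22.6, −1.68) and so was Tnc, the matricellular tenascin-C (0.915 in 5 of 44 cells against 5.82 in 16 of 49, −1.83), where 1.08% of all genes were. Without the cells with pericyte and smooth-muscle markers 5 members were called, with Sparcl1 (8.82 against 3.22, 1.22) and Fn1 (1.53 against 0.237, 1.03) added to the higher ones, where 1.44% of all genes were called higher and 1.02% lower. Fn1 had a ratio of −0.59 with them, so 1 control cell decided its sign.

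With losartan alone on the CD45-negative plates (47 against 49 cells) Sparcl1 and Serpinh1 were called higher of 16 members, where 1.21% of all genes were, and none lower, where 0.284% were. Sparcl1 stood at 29.6 ± 145.8 against 4.52 ± 11.7 (2.47), but 1 cell with pericyte and smooth-muscle markers held 70.9% of the losartan level. Without such cells it stood at 4.37 against 3.22 (0.35) and was not called. Serpinh1 stood at 11.5 ± 18.2 (median 7.30) against 3.77 ± 5.22 (median 2.47), a ratio of 1.39, and at 9.27 against 3.18 (1.30) without those cells. Pcolce stood at 26.5 and 30.5 and Col11a1 at 28.5 and 24.6, neither of them called. On these plates no gene of the 4 fixed lists was called with losartan, and Itga1 alone was with losartan+anti-PD1 (0.899 against 5.20, −1.71). Itga1 was above 0 in a like share of cells, 11 of 44 and 12 of 49. Over all malignant cells of these plates 1 cell held 36.1% of the Itga1.

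The 8 anti-PD1 malignant cells of the CD31-positive plate stood apart from the rest. Their members summed to a mean of 534 TP100K against 107.2 to 154.2 on the other plates, with Sparc at 93.6 and Bcan at 44.03 and Pcolce at 1.91 in 2 of 8 cells. All 5 astrocyte markers were above 0 in at least 25% of these cells, at a summed mean of 647 TP100K against 5.43 to 17.1 on the other plates, and the part of that in the member levels was not tested. Without the cell with pericyte and smooth-muscle markers the mean sum was 404. These cells are part of the levels and shares given for all malignant cells of the plates, and entered no comparison between treatments.

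In cells labelled microglia, 3 members passed the filter between losartan (30 cells) and control (28 cells). Sparc was above 0 in 14 of 30 losartan cells (46.7%, 28.3 to 65.7%) at 56.6 ± 71.99 TP100K and listed at 0 in all 28 control cells, a difference called where 20.1% of all genes were higher. Spp1 was called lower, at 3.30 in 1 losartan cell against 26.5 ± 52.8 in 9 of 28 control cells, where 8.27% of all genes were lower. Within cluster 6 Sparc stood at 70.7 ± 74.1 in 14 of 24 losartan cells, at 48.3 in 3 of 4 anti-PD1 cells, at 0.0243 in 1 of 7 losartan+anti-PD1 cells and at 0 in 16 control cells. Sparc is known in brain as a gene of homeostatic microglia. The summed level of the 7 microglia markers also differed between the plates in cluster 6, with a mean of 2091 TP100K with losartan, 894.9 with anti-PD1, 245.7 in control and 93.79 with losartan+anti-PD1, and its part in the Sparc values was not tested. Fn1 was above 0 in 6 of 16 control, 4 of 24 losartan and 6 of 7 losartan+anti-PD1 cells of cluster 6, and in none of cluster 11.

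**Figure D5:**
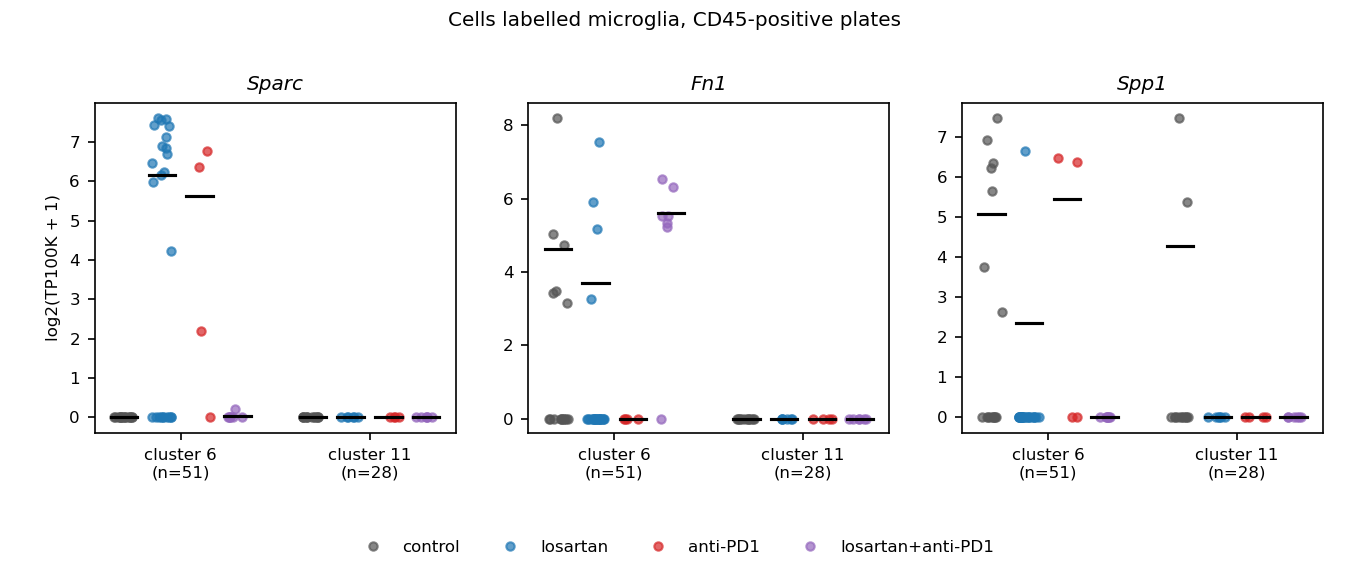
Level of Sparc, Fn1 and Spp1 in each cell labelled microglia on the CD45-positive plates as log2(TP100K + 1), by deposited cluster (51 cells in cluster 6, 28 in cluster 11) and treatment (color and position), with a bar at log2 of the mean TP100K + 1. In cluster 6 Sparc is above 0 in 14 of 24 losartan cells and in none of 16 control cells, and in cluster 11 Sparc and Fn1 are at 0 in every cell.

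Genes of the fixed lists were also called in both myeloid labels with losartan. In cells labelled microglia, 20.1% of all genes were called higher and 8.27% lower. There 3 of 5 collagen-modifying genes were called higher, led by the prolyl hydroxylase subunit P4ha1 (30.7 against 5.599 TP100K, 2.27). Of 7 receptors Itgb5 (22.9 against 4.97, 1.999) and Itga5 (1.60) were higher, and the hyaluronan receptor Cd44 (23.8 against 85.6, −1.80) and Sdc4 (−1.61) lower. Cluster 11, with its granulocyte markers, gave 6 of these losartan and 12 of these control cells. Within cluster 6 (24 and 16 cells) Cd44 went the other way (12.9 against 8.66, 0.52). P4ha1 (1.33), Itgb5 (1.47), Itga5 (1.37) and Sdc4 (−1.83) were still called there. In Myeloid cells Ddr1 (6.07 against 1.11, 1.75) and Itgav (1.16) were higher and Cd44 lower (3.36 against 9.60, −1.28), of 5 receptors. Of all 7460 genes tested in Myeloid cells, 10.7% were called higher and 3.11% lower.

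Other leukocytes added little. In cells labelled Myeloid and in T cells 1 member, Loxl2, passed the filter between losartan and control and was not called. Loxl2, a collagen cross-linking enzyme, was above 0 in 64.9 to 97.3% of the cells of all 12 populations, lymphocytes included. Its detection thus told no population apart. Its means ran from 0.388 to 2.82 TP100K over both kinds of plate, whose units differ. Thbs1, a matricellular thrombospondin, rested on 1 cell in each myeloid population, which held 71.5% of its level in cluster 6, 76.3% in cluster 11 and 88.6% in Myeloid cells.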

How the data were processed

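Single cells from GL261 tumors were read from a table of 21765 genes and 1078 cells, each cell 1 sample, with deposited cell types and clusters. The authors aligned reads to mm10, and the submitters' processing notes name TopHat, Bowtie and RSEM 1.2.8. As deposited, the 652 cells of CD31-positive and CD3-positive plates hold TPM (totals of 1000000), and the 426 cells of CD45-negative and CD45-positive plates hold expected counts (78.7% of values above 0 whole). No test on counts was run, since no treatment within a sort had more than 1 sample, and TPM keeps no depth.

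Each cell was scaled to 100000 (TP100K). Groups were compared by the log2 ratio of (mean + 1) over genes above 0 in at least 25% of either group, and called at 1 or more either way. Members named were those above 0 in 25% of a population, those with over 50% of their level in 1 cell, those called, and the 5 of highest mean, and up to 4 genes of each pathway list. Members, lists and comparisons were chosen with earlier results of these data known. Alternatives were pseudocounts of 0.1 and 10, no filter, 75th percentile scaling, cells of 2000 to 6000 genes, the highest cell left out, thinning to 100000 expected counts, detection above 1 TP100K, and, added after the data were seen, single clusters and leaving out cells with pericyte and smooth-muscle markers. No doublet caller was run. Steps were tested on simulated data, with Python 3.11.15, numpy 2.4.6, pandas 2.3.3, scipy 1.17.1 and matplotlib 3.10.9.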

Additional observations from a re-analysis of the deposited data

Results flagged for a closer look

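Serpinh1, the collagen chaperone HSP47, had a log2 ratio of losartan over control of 1.39 in malignant cells of the CD45-negative plates and of −1.04 in TECs of the CD31-positive plates. The ratios lay on opposite sides of 0, the plates differ in unit, and the difference was not tested. Without the highest cell of each group the ratio in TECs was −0.60, and within cluster 7 it was −0.07.

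Several members were above 0 in populations that entered no comparison. In 31 oligodendrocytes of the CD45-negative plates, 29 of them from the anti-PD1 plate, Loxl2 was above 0 in 96.8% of cells, Sparc in 61.3%, Bcan, Col16a1 and Col20a1 each in 41.9%, Lamc1 in 38.7%, Vcan in 35.5% and Ncan in 25.8%. In 53 NK cells Loxl2 was above 0 in 88.7% and Ncan in 26.4%, and in 33 B cells Loxl2 was above 0 in 96.97%.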

How the results depend on the processing

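Each treatment in a sort was 1 plate, so no replicate could be left out and no error between samples can be given. No paired analysis was possible because no replicate number ties cells of different treatments and no result comes from a test. Among counts of members 78 stayed within 1.5 times and 40 moved, and of 1592 single values 1296 kept their place, 293 moved and 3 values called in the first place changed sign, beside 86 that were not called: Thbs2 between TECs and malignant cells (0.28, cells of 2000 to 6000 genes), Col3a1 with losartan+anti-PD1 in CD45-negative malignant cells (−0.87, the same gene range, which holds a control cell with pericyte and smooth-muscle markers) and Sparcl1 between TEC clusters (−0.19, 75th percentile scaling). A pseudocount of 10 lowered the members called to 10 from 21 between TECs and malignant cells, 8 from 15 between TEC clusters, 8 from 16 and 7 from 14 between malignant cells and microglia or Myeloid cells, 0 from 5 for losartan in TECs and 0 from 1 within clusters 7 and 12, 1 from 3 and 0 from 4 for losartan+anti-PD1 in TECs against control and anti-PD1, 1 from 2 for losartan in CD45-negative malignant cells, and 0 from 2 and 0 from 3 for the combination in CD31-positive and CD45-negative malignant cells. Without the filter the counts were 28 and 24 against microglia and Myeloid cells, 9 and 3 for losartan in TECs and in clusters 7 and 12, 6 and 7 for the combination in TECs, 6 and 10 for losartan and the combination in CD45-negative malignant cells, and 8, 4 and 2 for losartan in microglia, Myeloid and T cells. A pseudocount of 0.1 gave 5 for the combination in TECs and 3 and 4 for losartan and the combination in CD31-positive malignant cells. Cells of 2000 to 6000 genes gave 5 for the combination in TECs, 0 for losartan in clusters 7 and 12, 10 and 8 in CD31-positive and 10 and 12 in CD45-negative malignant cells, where few cells were left. For the combination in TECs, 75th percentile scaling gave 5, leaving out the highest cell 6 and clusters 7 and 12 alone 5. Leaving out the highest cell gave 4 for the combination in CD31-positive malignant cells, leaving out cells with pericyte and smooth-muscle markers gave 5 in CD45-negative ones, and cluster 7 alone gave 1 for losartan. Counting only levels above 1 TP100K left 12 members detected in CD31-positive malignant cells, 1 in NK cells and 0 in T cells. The causes were not tested.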

Other observations

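Oligodendrocytes of the CD45-negative plates carried a collagen that no other population did in 25% of cells. Col20a1, a fibril-associated collagen, stood at 32.4 ± 49.8 TP100K (SD over cells, n = 31) and was above 0 in 13 cells (41.9%, 24.5 to 60.9%), all on the anti-PD1 plate. Those 13 cells differed from the other 18 in further genes. Gpr17, a receptor of differentiating oligodendrocytes, was above 0 in 11 of the 13 and in 1 of the 18, and Vcan, the lectican versican, in 10 and 1. Sparc ran the other way, above 0 in 4 of the 13 and 15 of the 18. The cells were split by Col20a1 after its values were seen, so these values describe them only.

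Spp1, which encodes osteopontin, was above 0 in few T cells but at high levels. Its mean was 11.3 TP100K in control (8 of 79 cells), 53.97 with losartan (8 of 76), 1.06 with anti-PD1 (4 of 88) and 48.4 with losartan+anti-PD1 (13 of 84), and 1 losartan cell held 34.9% of the losartan level.

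The CD45-negative plates also held 6 TECs, in which Col4a1 and Col4a2 were both above 0 in 6 of 6 cells.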
